A study of Hynobius leechii and Hynobius unisacculus and Hynobius quelpaertensis with 23 samples.

Results

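The transcripts described here are those of the mitochondrial genome, taken as every row whose gene symbol starts with MT-. There were 50 such rows among the 49173 rows of 6 count tables, under 12 of 13514 distinct symbols. The tables came from polyadenylated RNA of liver, intestine and skin of untreated adult Hynobius salamanders caught in the wild in Korea, with 23 libraries from 15 animals. Each table covers 1 lineage, and HC1, HC3 and LE are lineages of Hynobius leechii, QU is Hynobius quelpaertensis, UN is Hynobius unisacculus and YA is Hynobius yangi. HC1, HC3 and LE each have 3 livers, and QU, UN and YA each have 2. An intestine was sequenced from 1 animal each of HC1, LE, QU, UN and YA, and a skin from 1 animal each of HC1, HC3 and UN. No group carries a mutation or a treatment, and the labels used here give no age or sex.

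All libraries were sequenced from whole pieces of tissue, so a level is an average over every cell type in the piece. Fewer cells of a type and less RNA per cell cannot be told apart in such libraries. With 1 intestine or skin in a lineage, the spread between animals of that tissue within a lineage is unknown. Library totals were 8672566 to 19281948 counts in livers, 1703075 to 3390245 in intestines and 2552636 to 4628175 in skins. In 6 livers, all from animals with a second tissue sequenced, 43.0% to 51.4% of low counts (1 to 19) were odd numbers, against 11.3% to 22.5% in the other 17 libraries. These are called odd-count livers below, and they are HC1 liver 2, HC3 liver 2, LE liver 3, QU liver 1, UN liver 1 and YA liver 2. Marker genes of the labelled tissue were counted in every library, though single markers stood at 0 in some. APOB and CPS1, for example, were at 0 in HC1 liver 2 and LE liver 3. Summed hepatocyte markers were 29873 to 247074 counts per 1000000 (CPM) in livers, and at most 9080 CPM in intestines and 15311 CPM in skins. Keratinocyte markers summed to 21885 to 33637 CPM in skins and to at most 2074 CPM elsewhere, and enterocyte and goblet cell markers to 6501 to 20848 CPM in intestines against 7.31 to 155 CPM in livers. HC3 skin stood apart from the other skins, with 14752 CPM of these gut markers against 863 and 1561 CPM, and 15311 CPM of hepatocyte markers against 495 and 43.5 CPM. Skins also held 8009 to 9365 CPM of skeletal and heart muscle markers, against 15.6 to 3543 CPM in intestines and 1.20 to 4411 CPM in livers.

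Mitochondria keep a small circular genome that is separate from the chromosomes of the nucleus. In vertebrates it encodes a few core subunits of the respiratory chain, together with the ribosomal and transfer RNAs needed to translate them. Its messages are cut from long transcripts that span many genes, so their levels after processing also depend on how stable each one is. The MT-ND genes encode subunits of complex I, which passes electrons from NADH to ubiquinone. MT-CYB encodes cytochrome b of complex III, MT-CO1 to MT-CO3 encode the catalytic core of cytochrome c oxidase (complex IV), and MT-ATP6 encodes the proton channel subunit of ATP synthase (complex V). Liver and gut epithelium are both rich in mitochondria. Sequences and transcript lengths were not used here, so rows of equal name may cover unequal parts of a gene, and levels are compared between libraries of a table and not between genes.

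The same mitochondrial gene was carried by a deeply counted row in one lineage and by a nearly empty row, or by no row used here, in another. MT-ND4L had a row in all 6 tables, MT-ND5, MT-CYB, MT-CO1 and MT-CO3 in 5, MT-ND2, MT-ND4 and MT-CO2 in 4, and MT-ND1, MT-ND3, MT-ND6 and MT-ATP6 in 3. Of the 50 rows, 23 had at least 100 counts in every library of their table, 13 passed 100 in some libraries only, and 14 reached 100 in none. MT-CO1, for example, had 48626 to 487375 counts in the libraries of the LE table and 0 to 6 counts in those of the UN table. MT-CYB had 85927 to 634464 counts in HC1 and at most 2 in LE. Of 187 values in all, 25 were 0, and 19 of those 25 were in odd-count livers. Zeros were common in those livers for genes at large, with 24.3% to 40.8% of all rows at 0. In the other libraries 0.654% to 15.9% of all rows were at 0. A count of 0 allows up to 3 counts, for counting error alone.

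**Figure D1:**
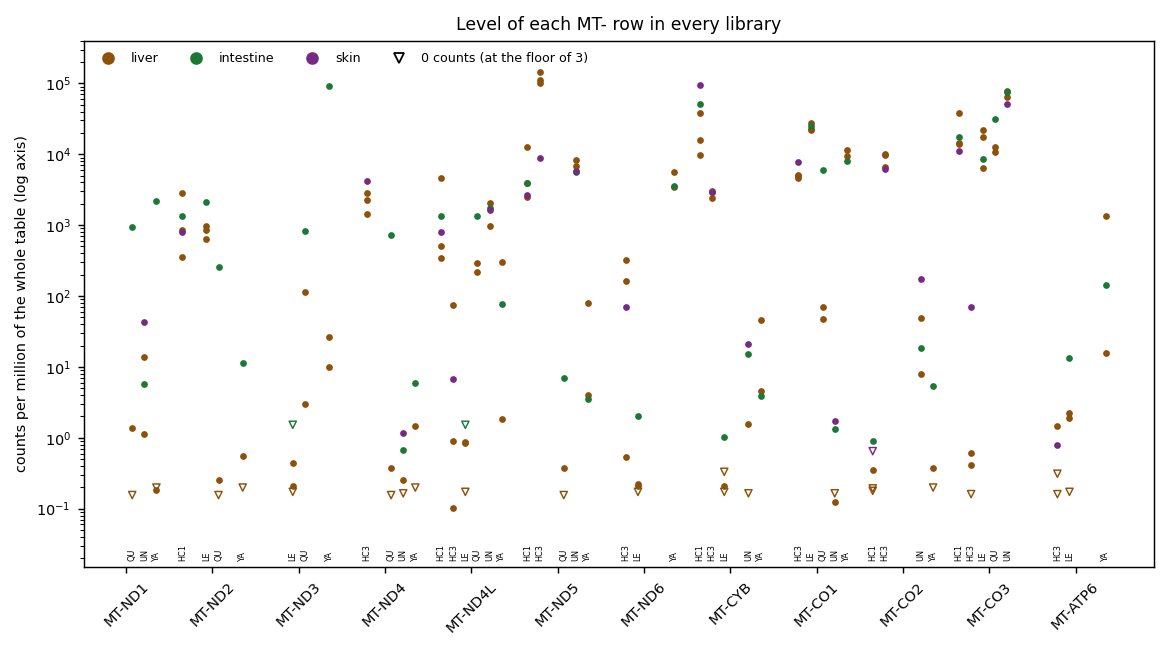
Level of each MT- row in every library, in CPM of the whole table on a log axis. Each column of points is 1 table, named below it, colours mark the tissue and open triangles stand for a count of 0, drawn at 3 counts. Most genes have a table with a deep row beside one with fewer than 10 CPM, and the spread between tables is wider than that between tissues of a table for most rows.

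Summed over all MT- rows, mitochondrial transcripts took 1.13% to 16.3% of a liver library, 3.54% to 10.7% of an intestine library and 2.99% to 10.9% of a skin library. The means were 6.08% ± 4.85 (SD, n = 15) in liver, 6.88% ± 2.99 (SD, n = 5) in intestine and 6.62% ± 4.0 (SD, n = 3) in skin. These means lie within 1 SD of each other. They pool lineages, of which not all have an intestine or a skin, so they do not compare tissues. HC3, with the highest liver shares, has no intestine. The 95% exact binomial interval of a summed share spanned at most 0.0698 percentage points. These intervals cover counting error and not the spread between animals.

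The tissue with the larger share differed between lineages. In HC1 the livers stood at 2.71%, 9.64% and 3.55%, the intestine at 7.60% and the skin at 10.9%, so that the skin was above and the intestine within the range of the livers. In HC3 the order was the other way round, with livers at 16.3%, 12.3% and 13.0% and the skin at 2.99%. In UN the livers held 8.94% and 7.16%, the intestine 8.34% and the skin 5.95%.
The intestine was far above the livers in QU, at 4.18% against 1.32% and 1.13%, and in YA, at 10.7% against 1.66% and 1.5%. In LE it stood at 3.54% against 4.06%, 4.51% and 3.55% in the livers, and its counting interval overlapped that of the lowest. Among the livers of a table, the odd-count liver had the highest share in HC1, QU and UN and the lowest in HC3, LE and YA. In YA, HC1, HC3 and UN the directions of intestine or skin against the livers rest largely on a single row each. MT-ND3 held 86.8% of the mitochondrial counts in the YA intestine, and MT-CYB 85.9% in the HC1 skin. In the HC3 livers MT-ND5 held 83.1% to 88.1%, and in the UN libraries MT-CO3 held 87.0% to 91.1%. In QU and LE, MT-CO3 of the intestine stood furthest from the liver mean in CPM, at 31725 against 11875 and 8488 against 15376. No test is given for these sums, and their difference between lineages was not tested.

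**Figure D2:**
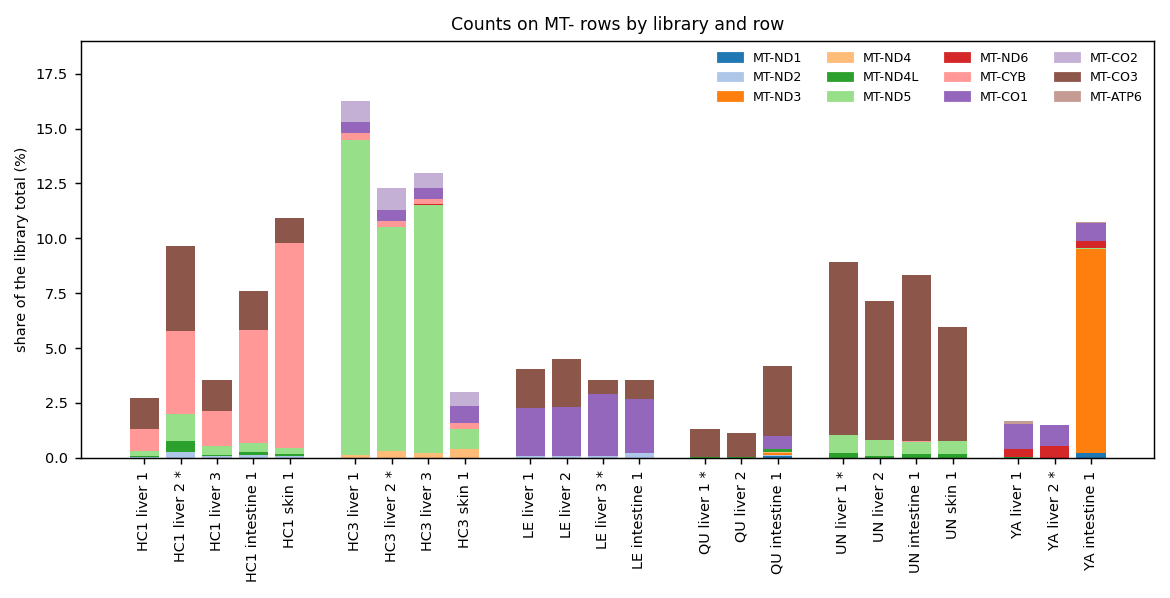
Share of each library's total count that fell on MT- rows, in percent, stacked by row, with libraries grouped by table. Stars mark the 6 odd-count livers. A single row makes up most of nearly every bar, and it is MT-ND5 in HC3, MT-CO1 in LE and MT-CO3 in QU and UN.

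One row held most of the mitochondrial counts in nearly every library, and which gene it was depended on the table. MT-CO3 was the top row in every QU and UN library, with 75.9% to 97.1% and 87.0% to 91.1% of the mitochondrial counts. MT-ND5 led in every HC3 library, with 83.1% to 88.1% in the livers but 29.2% in the skin. MT-CO1 led in LE at 50.0% to 79.0%. In HC1 the lead was MT-CO3 in livers 1 and 2 and MT-CYB in liver 3, intestine and skin, and MT-CYB reached 68.2% in the intestine and 85.9% in the skin. In YA it was MT-CO1 in both livers, at 68.8% and 62.6%, and MT-ND3 in the intestine, at 86.8%.

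Position against the livers of the same table was counted for the rows that reached 100 counts in a library. Of 28 such rows in the 5 tables with an intestine, the intestine was above every liver in 11, below every liver in 4 and within their range in 13, on the whole-table CPM scale. Over all rows of those tables that reached 100 counts, 44.6% were above and 30.1% below. Of 18 such rows in the 3 tables with a skin, the skin was above in 6, below in 5 and within in 7, against 53.7% and 19.8% over all rows. In percent, 39.3% of the mitochondrial rows were above and 14.3% below in intestine, and 33.3% and 27.8% in skin. No test of the difference from rows at large was made. Every QU row that reached 100 counts was above in intestine, and these are all values of the same library. MT-ND1, MT-ND2 and MT-ND4 of QU and MT-ND1 of YA reached 100 counts in the intestine alone, and MT-CO3 of HC3 in the skin alone. Such rows could only fall above. Among the rows below in intestine, MT-CYB and MT-ND5 of YA rest on 13 and 12 counts there.

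Among the complex I subunits, MT-ND5 encodes one of the large membrane subunits that move protons. In HC3 the livers held 143292, 102122 and 112706 CPM of MT-ND5 and the skin 8744 CPM. The skin was 11.7-fold below the lowest liver, and the liver mean was 119374 ± 21380 CPM (SD, n = 3). In that skin the hepatocyte markers, 10 of 14 in the table, and the gut markers, 6 of 9, had none at 0 and summed to the levels given above, while the HC3 livers held 129131 to 206638 CPM of hepatocyte markers and 30.6 to 60.2 CPM of gut markers. The part of other cell types in the levels of this skin was not tested. In UN the livers held 8256 and 6923 CPM, the intestine 5690.4 CPM and the skin 5889 CPM, so both other tissues were lower than the livers but by little. In HC1 the livers held 2527, 12674 and 3893 CPM, the intestine 3889 CPM and the skin 2668 CPM, all within the range of the livers. The YA row was small, with 875 and 60 counts in the livers and 12 in the intestine, and the QU row had 12 counts at most. In CPM the YA intestine, at 3.54, was just below the lower liver, at 3.97.

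MT-ND4L encodes the smallest of the complex I subunits made in mitochondria and is the one gene with a row in every table. In HC1 its livers held 341, 4592 and 506 CPM, the intestine 1333 CPM and the skin 792 CPM. In UN the livers held 2050.2 and 975 CPM, the intestine 1725 CPM and the skin 1632 CPM. In both tables intestine and skin lay within the range of the livers.
In QU the intestine held 1359 CPM against 219 and 290.0 CPM in the livers, and in YA 76.7 CPM against 306 and 1.85 CPM. HC3 had 1, 17 and 732 counts in the livers and 17 in the skin, and LE 8, 8 and 0 in the livers and 0 in the intestine. The YA livers thus differed by 165-fold between them and the HC3 livers by 736-fold, and the odd-count liver was the high library in HC1 and the low one in YA.

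In vertebrates MT-ND4L and MT-ND4, a larger membrane subunit of complex I, are read from a shared message. Their rows nevertheless did not keep a common ratio. In HC3, MT-ND4 had 13798, 53979 and 22106 counts in the livers and 10690 in the skin. In CPM that skin was above all livers, at 4188 against 1425 to 2887. MT-ND4L had between 1 and 732 counts in the HC3 libraries. In UN the reverse held, with at most 4 counts for MT-ND4 and 5167 to 37328 for MT-ND4L. In QU, MT-ND4 had 1234 counts in the intestine, 0 in liver 1 and 6 in liver 2, while MT-ND4L had 2314, 4217 and 4634. What part the assembled sequences behind these rows have in this was not tested.

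MT-ND2, another membrane subunit, was counted deeply in HC1 and LE. LE livers held 844, 643 and 981 CPM and the intestine 2149.6 CPM, 2.19-fold above the highest liver. HC1 livers held 353, 2865 and 846 CPM, the intestine 1335 CPM and the skin 812 CPM, all within the range of the livers. In QU the intestine had 441 counts against 0 and 4, and in YA 38 against 6 and 0.

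MT-ND3, a small subunit near the quinone site, differed steeply between tissues in YA. The YA intestine had 315441 counts of MT-ND3, or 93044 CPM and 9.30% of the library, while the YA livers had 108 and 397 counts, or 9.99 and 26.3 CPM. The intestine was 3540-fold above the higher liver. In QU the intestine held 835 CPM against 113 and 3.0 CPM in the livers, again the highest of its table, and the LE row never passed 4 counts.

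MT-ND1 and MT-ND6 had a row in 3 tables each. MT-ND1, which forms part of the quinone binding site, had 7492 counts in the YA intestine and 2 and 0 in the YA livers, and 1584 in the QU intestine against 0 and 22. In UN it had 252 and 18 counts in the livers, 17 in the intestine and 148 in the skin. That skin was the highest on the CPM scale, at 43.0 CPM against 13.8 and 1.12 CPM in the livers. MT-ND6, the only protein gene on the other strand of the vertebrate mitochondrial genome, held 3399 and 5548 CPM in YA livers and 3526 CPM in the YA intestine. In HC3 it had 1576, 10 and 3063 counts in the livers and 177 in the skin, with the odd-count liver the lowest. In YA, then, MT-ND1, MT-ND2, MT-ND3 and MT-ND4 stood higher in the intestine than in both livers in CPM. Of these only MT-ND3 had 100 counts in every library. MT-ND2 and MT-ND4 had 38 and 20 counts at most, and MT-ND1 had 2 and 0 in the livers. MT-ND4L and MT-ND6 stood among the livers, and MT-ND5 was below both, on 12 counts in the intestine.

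For complex III, MT-CYB stood above the livers in the HC1 intestine and skin on the CPM scale. The HC1 livers held 9908, 37717 and 15978 CPM, the intestine 51873 CPM and the skin 93681 CPM. The skin was 2.48-fold and the intestine 1.38-fold above the highest liver. In that skin the 14 muscle markers of the table summed to 9365 CPM, with none at 0, and in the intestine to 2710 CPM, with MYH4 and TNNI2 at 0. The part of muscle in the level of MT-CYB was not tested.
In HC3 the livers held 2939, 3047 and 2425 CPM and the skin 2890.0 CPM, within their range. The UN row was small, with 0 and 25 counts in the livers, 46 in the intestine and 72 in the skin, and the YA row had 492 and 68 in the livers and 13 in the intestine. The intestine was thus the low library in YA and the skin the high one in HC1 and UN.

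For complex IV, MT-CO1, the subunit with the heme and copper centre that reduces oxygen, was within 2-fold of the mean of the livers in 3 tables and not in QU. LE livers held 21987, 22534 and 28054 CPM and the intestine 24711 CPM, within their range. YA livers held 11388 and 9379 CPM and the intestine 8167 CPM, slightly below both. HC3 livers held 4968, 4661 and 5103 CPM and the skin 7808 CPM, 1.53-fold above the highest. In QU the intestine held 5978 CPM against 47.1 and 69.9 CPM in the livers, 85.5-fold above the higher one. The hepatocyte markers, 11 of 14 in that table, summed to 9080 CPM in the QU intestine with none at 0.

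MT-CO2, which takes the electrons from cytochrome c, was counted deeply in HC3 only. The HC3 livers held 9854, 10118 and 6609 CPM and the skin 6142 CPM, just below the lowest liver. In UN it had 883 and 126 counts in the livers, 56 in the intestine and 600 in the skin, where the skin was the highest on the CPM scale at 174 CPM. The HC1 and YA rows never passed 18 counts.

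MT-CO3, a structural core subunit, was the most abundant row of QU and UN. UN livers held 78985 and 63719 CPM, the intestine 75942 CPM and the skin 51754 CPM. QU livers held 12855 and 10895 CPM and the intestine 31725 CPM, 2.47-fold above the higher liver. The skin was the lowest library in UN and the intestine the highest in QU.
HC1 livers held 13975, 38554 and 14271 CPM, the intestine 17584 CPM and the skin 11164 CPM. LE livers held 17743, 21897 and 6487 CPM and the intestine 8488 CPM, with the odd-count liver the lowest. In HC3 the row was nearly empty, with 6, 0 and 4 counts in the livers and 176 in the skin. So the HC3 table, where MT-ND5 was deepest, carried MT-CO3 only in traces.

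MT-ATP6, the subunit of complex V, passed 100 counts in YA only. The YA livers had 14373 and 235 counts and the intestine 485, or 1329, 15.6 and 143 CPM. The intestine lay between 2 livers that differed by 85.4-fold. LE had 18, 20 and 0 counts in livers and 26 in the intestine, and HC3 14, 0 and 0 in livers and 2 in the skin. MT-ATP8 is not analysed here.

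Tests of the tissue differences used edgeR's quasi-likelihood test with TMM scaling and Benjamini-Hochberg adjustment over all genes of a fit, with genes under an adjusted p of 0.05 called. TMM sets a trimmed mean over genes at no change, so these log2 fold changes are relative to other genes, unlike the CPM above. With whole-table library sizes the all-gene median of the log2 fold change was higher, for example 1.45 in place of 0.04 in HC3 skin and 0.64 in place of -0.08 in HC1 intestine. MT-CO1 in HC3 skin, for instance, was 1.59-fold the liver mean in CPM, while its log2 fold change relative to other genes was -0.87 ± 0.98 (SE).

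Only MT-ND4L could be fitted over all 6 tables, with lineage as a term, and it was called in no comparison of tissues. The log2 fold change was -0.69 ± 1.32 (SE) in intestine against liver (adjusted p = 0.777), where 8.44% of 2252 genes were called and the median of all genes was 0.71. In skin against liver it was -1.79 ± 1.69 (adjusted p = 0.628), with 4.09% called and a median of 0.60. Intestine against skin gave 1.11 ± 1.80 (adjusted p = 0.999), with 0.0444% called. Over the 5 tables with an intestine the value was -0.42 ± 1.06 (adjusted p = 0.828), with 7.59% of 2820 genes called. When lineage was replaced by the animal as a block, the intestine value changed sign to 0.97 (adjusted p = 0.698).

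Over the 3 tables with a skin, 5 mitochondrial genes could be fitted together, and none was called, where 6.57% of 4780 genes were. MT-ND5 was -2.35 ± 1.0 (adjusted p = 0.204, unadjusted p = 0.0376), and with an effect for each lineage it was negative in HC1, HC3 and UN, at -1.93, -5.17 and -1.14. MT-CO3 was 3.09 ± 2.24 (adjusted p = 0.472), and its value rests on HC3, with -1.69 in HC1, -1.23 in UN and a positive value in HC3, where the livers had 6 counts or fewer. DESeq2 called both, MT-ND5 at -2.17 (adjusted p = 0.0119) and MT-CO3 at 3.42 (adjusted p = 0.0231). It called 1131 of the 4780 genes, far more than edgeR. Without the HC3 skin, MT-CO3 was -1.5. MT-CYB was 1.47 ± 1.31 (adjusted p = 0.570), MT-CO2 0.40 ± 1.48 (adjusted p = 0.908) and MT-ND4L -1.87 ± 1.68 (adjusted p = 0.577).

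Each of the other 11 genes was also fitted for intestine against liver over the tables that hold its row and an intestine, and none was called. In complex I, MT-ND2 stood at 4.59 ± 2.08 (adjusted p = 0.233) over 15 libraries, where 4.86% of genes were called. Its QU and YA livers were nearly empty, and the deep tables alone gave -0.68 in HC1 and 0.95 in LE. MT-ND3 was 6.48 ± 3.74 (adjusted p = 0.379), with 3.27% called, MT-ND5 -0.04 ± 1.95 (adjusted p = 0.993), with 2.81% called, and MT-ND6 1.46 ± 1.35 (adjusted p = 0.596), with 0.885% called. MT-ND1 and MT-ND4 were fitted together over QU, UN and YA, where 0% of 3815 genes were called, and no fold is given for them, since their QU and YA livers had 22 counts or fewer. MT-CYB was 1.97 ± 1.47 (adjusted p = 0.399), with 6.2% called. In complex IV, MT-CO1 was 2.68 ± 1.41 (adjusted p = 0.324), with 3.09% called, MT-CO2 2.5 ± 1.66 (adjusted p = 0.484), with 2.6% called, and MT-CO3 -0.41 ± 0.57 (adjusted p = 0.711), with 5% called. For MT-CO2 the HC1 and YA rows never passed 18 counts, and UN alone gave -0.88. MT-ATP6 was 0.98 ± 2.46 (adjusted p = 0.852), in the same fit as MT-ND6. In YA alone MT-ATP6 gave -2.49 and MT-ND6 -0.56, and their LE rows had 26 and 4 counts at most. For MT-CO1 single tables gave -0.40 in LE, -0.58 in YA and 5.38 in QU, and its UN row had 6 counts at most. For MT-CYB they gave 0.61 in HC1, 3.68 in UN and -2.96 in YA, and its LE row had 2 counts at most. For MT-ND5 single tables gave -1.38 in HC1, -0.83 in UN, -3.84 in YA and 3.89 in QU, and its QU row had 12 counts at most. The values of MT-ND5 and MT-CO3 became positive with whole-table sizes. The tables joined, and so the libraries, differ from gene to gene.

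Within single tables, 54 tests of mitochondrial rows were made, and 1 was called. It was MT-CO3 in HC3 skin (adjusted p = 0.0392), on 176 counts in the skin against 6, 0 and 4 in the livers. The row passed the filter on low counts through the skin alone, so it had to differ, and no fold is given. In that fit 6.29% of 6359 genes were called, and without HC3 liver 1 no gene was called and MT-CO3 had an adjusted p of 0.184. The much larger row MT-ND5 in the same skin was -5.27 ± 1.46 (adjusted p = 0.0801). With whole-table library sizes MT-ND5 was -3.77, and without a filter it was -5.35. It passed the threshold in both settings, but both also called far more genes in all, as given further below. The other HC3 skin rows were between -3.52 for MT-ND4L and -0.38 for MT-ATP6, with no adjusted p under 0.367.

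In HC1 skin, where 4.2% of 8161 genes were called, none of 5 mitochondrial rows was. MT-CYB stood at 1.47 ± 0.71 (adjusted p = 0.390), while MT-CO3, MT-ND2, MT-ND4L and MT-ND5 were all negative, at -1.68, -1.40, -1.83 and -1.92. In HC1 intestine none was called, against 4.58% of genes, with MT-CYB at 0.61 ± 0.74 (adjusted p = 0.754) and the other 4 rows between -1.38 and -0.68. Without HC1 liver 2, MT-ND2 and MT-ND4L there were positive, at 0.36 and 0.85, and in HC1 skin MT-ND4L was 0.022. LE intestine had no call among 4 rows against 4.21% of genes, and MT-CO3 there was -1.34 ± 0.97 (adjusted p = 0.479). Without the odd-count LE liver 3 it was -1.88 and passed the threshold. The number of genes called in LE intestine depended strongly on which liver was left out.

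The fits of QU, UN and YA, with 2 livers each, called 0% of genes in edgeR, so a missing call says nothing about a gene there. At an unadjusted p under 0.05 they had 898 genes in QU intestine, 869 in UN intestine, 1028 in UN skin and 959 in YA intestine. In QU intestine MT-CO1 was 5.38 ± 0.64 (adjusted p = 0.159), MT-ND4L 1.12 ± 0.57 (adjusted p = 0.469) and MT-CO3 0.12 ± 0.54 (adjusted p = 0.946). Without a filter on low counts QU had 240 calls and MT-CO1 was among them, at 5.15 (adjusted p = 0.0151). In YA intestine MT-ND3 was 12.11 ± 1.04 (adjusted p = 0.209), while MT-CO1 was -0.58 ± 0.48 and MT-ND6 -0.56 ± 0.56. The rows MT-ND1, MT-ND2 and MT-ND4 of QU and MT-ND1 of YA, with livers at 22 counts or fewer, have no fold given. UN intestine and skin gave MT-CO3 at -0.33 ± 1.57 and -1.55 ± 1.67.

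**Figure D3:**
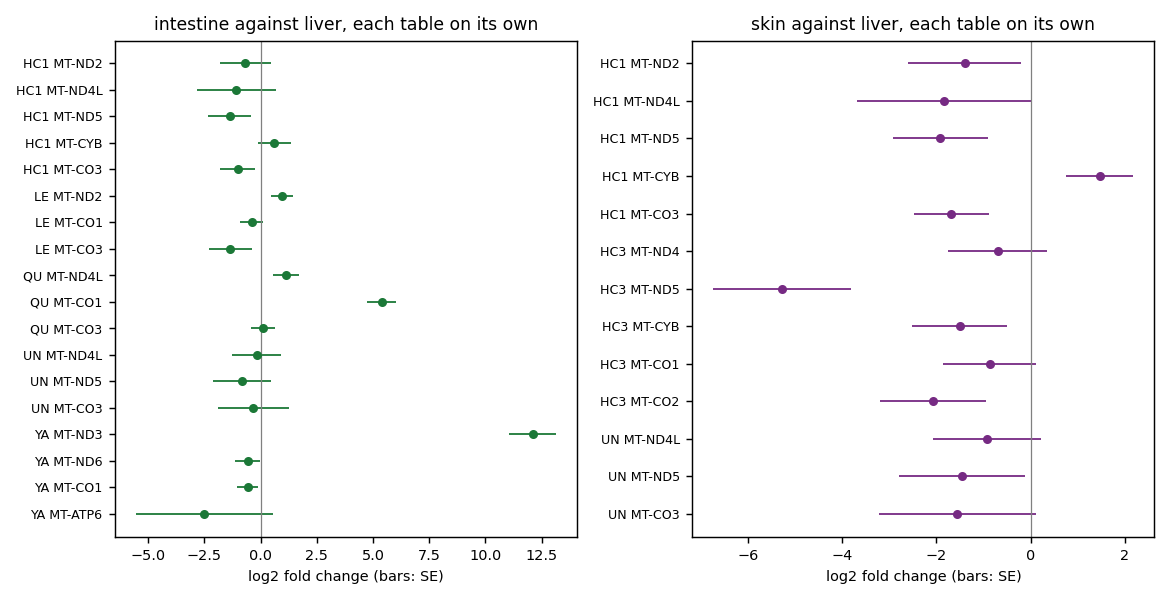
Log2 fold change of each MT- row with at least 100 counts in every library, against the livers of its own table, from edgeR fits of single tables, with bars for the SE. MT-ND3 in YA and MT-CO1 in QU stand apart among the intestine values, and MT-ND5 in HC3 and MT-CYB in HC1 at the opposite ends of the skin values. None of the plotted rows was called.

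The ratio of 2 mitochondrial rows in a library does not depend on library size or scaling, and MT-CYB to MT-ND5 was higher in every skin than in all livers of its table. In HC1 there were 3.92, 2.98 and 4.10 counts of MT-CYB for each count of MT-ND5 in the livers, 13.3 in the intestine and 35.1 in the skin. In HC3 the livers had ratios of 0.0205, 0.0298 and 0.0215 and the skin 0.330. UN livers had 0 and 0.000226, the intestine 0.00270 and the skin 0.00355. With 3 counts added to both rows, the skin exceeded the mean of its livers by 3.27, 3.81 and 5.70 on the log2 scale in HC1, HC3 and UN, a mean of 4.26. The added counts make the UN value depend on library depth, since UN liver 1 had 0 counts of MT-CYB. This ratio was chosen with earlier results of these data known, and 35 ratios within tables were looked at in all, so its p, adjusted over tissues only, is no independent evidence. The mean was the largest of 48 arrangements of tissue labels within tables (exact permutation test, two-sided, p = 0.0208, the smallest it can give; 0.0417 adjusted over the 2 tissues tested). The rows behind it differed, since in HC1 MT-CYB was the row outside the range of the livers, in HC3 MT-ND5, and in UN MT-CYB rested on 72 counts or fewer.

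For intestine the same ratio gave 1.88 in HC1, 5.34 in UN and 0.42 in YA, a mean of 2.55 (exact permutation test, two-sided, p = 0.0556, where the smallest possible is 0.0278). The UN value again depends on the added counts and so on depth. In YA the intestine, at 1.08, lay between the livers at 0.562 and 1.13. Without the 6 odd-count livers the means were 3.66 in skin (p = 0.0556, exact permutation) and 2.05 in intestine, and with only the liver of the same animal 4.85 in skin (p = 0.25, exact permutation) and 3.08 in intestine. These fewer libraries leave fewer arrangements, so the p cannot go as low. The skin mean was 3.54 to 4.75 with a skin left out in turn.

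**Figure D4:**
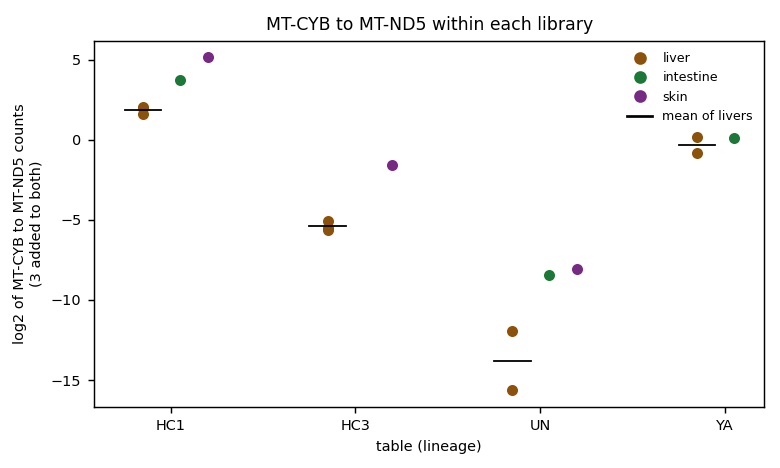
Log2 ratio of MT-CYB to MT-ND5 counts, with 3 added to both, in each library of the 4 tables that hold both rows and a second tissue. Points are libraries coloured by tissue and lines are the mean of the livers of a table. The skins of HC1, HC3 and UN lie above all livers of their table, and so do the intestines of HC1 and UN, while the YA intestine lies between its livers.

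Other ratios show which rows kept together within a table. Over 35 pairs of rows with at least 100 counts in every library, 5 stayed within 2-fold across all libraries of the table and 14 spread by more than 10-fold. MT-CO3 to MT-ND5 was among the steadiest, from 3.04 to 5.53 in HC1 and from 8.79 to 13.3 in UN over liver, intestine and skin. MT-CO1 to MT-CYB ran from 1.53 to 2.70 in HC3, and MT-CO1 to MT-ND6 from 1.69 to 3.35 in YA. Of the wide pairs in YA, MT-ATP6 to MT-CO1 and to MT-ND6 spread by 70.3-fold and 139-fold between the livers, with the intestine between them. In HC3 skin MT-ND4 to MT-ND5 was 26.8 times and MT-CO1 to MT-ND5 21.5 times the geometric mean of the livers, and in QU MT-CO1 to MT-ND4L was 4.40 in the intestine against 0.216 and 0.241 in the livers. In HC1 skin, MT-CYB to MT-ND2 and to MT-ND4L were 6.04 and 6.03 times the livers, while MT-ND2 to MT-ND4L was 1.0 times.

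Between lineages, MT-ND4L levels in liver differed at an adjusted p just under the threshold, in common with most genes of that comparison. On counts of the shared genes after TMM scaling, its CPM were 1331, 15010 and 1992 in HC1, 0.547, 5.66 and 563 in HC3, 3.98, 3.73 and 0 in LE, 982 and 1836 in QU, 6296 and 5265 in UN and 1418 and 5.64 in YA. The edgeR F test between lineages gave an adjusted p of 0.0483, where 65.4% of 2251 genes were called. The UN and QU livers stood above those of LE without overlap, while the HC3 and YA livers spread widely among themselves. The call was lost when any of 11 of the 15 livers was left out, with an adjusted p of up to 0.119. Differences between the assembled sequences of the tables, of unknown length, cannot be told apart from differences between lineages.

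Whether a tissue difference varied between lineages was tested as an interaction, and 0% of genes passed in edgeR in each of 3 such fits. The smallest p among the mitochondrial genes was that of MT-CO3 in skin, 0.010 (adjusted p = 0.635). For MT-ND5 in skin it was 0.0701 and for MT-ND4L in intestine 0.902.

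Most subunits of the respiratory chain are encoded in the nucleus and imported, and their messages were a smaller share of every library than the mitochondrial rows. The 40 to 60 nuclear-encoded respiratory chain genes of a table summed to 0.558% to 2.25% of a library. In HC1 there were 2.5, 10.2 and 3.94 mitochondrial counts for each nuclear one in the livers, 10.7 in the intestine and 19.6 in the skin. In HC3 there were 17.1, 20 and 20.9 in the livers and 5.32 in the skin. In LE, QU and YA the intestine stood above every liver, at 5.04, 4.70 and 13.4 against at most 2.44, 1.97 and 1.51. In UN the livers were at 11.5 and 5.13, the intestine at 12.4 and the skin at 9.30. This ratio was therefore above every liver of the table in 5 of 5 intestines and 1 of 3 skins, with no test made. The nuclear share of the intestine, the lower part of the ratio, was itself below every liver in HC1, LE, UN and YA, at 0.708%, 0.701%, 0.675% and 0.797%.

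Of the nuclear genes that serve mitochondrial expression and the respiratory chain, few were in all 6 tables, and 1 of those was called. Fits of single tables called others. In HC1 intestine a translation gene was higher and a complex IV gene lower. In LE intestine a translation gene was higher, and an RNA processing gene and an assembly factor lower. The shares over all genes in these fits are given above. In intestine against liver over all 6 tables, 8.44% of all genes were called either way. None of 2 genes of mitochondrial DNA and transcription, 3 of RNA processing and 8 of translation was among them. Nor was any of 3 complex III genes, 2 of complex IV, 4 assembly factors or ATP5SL, listed under complex V by symbol only. Of 3 nuclear complex I genes, NDUFA8 fell by 1.49 ± 0.44 (SE) on the log2 scale (edgeR, adjusted p = 0.0405), where 2.22% of all genes were called lower. The median of the complex I genes was -0.72 and that of the 8 translation genes -0.97, against 0.71 over all genes. Complex IV stood at -0.68, ATP5SL at -0.94 and the assembly factors at -0.16. Complex III stood at 0.20, RNA processing at 0.60 and mitochondrial DNA and transcription at 1.40. In skin against liver no gene of these lists was called in either direction, where 4.09% of all genes were. NDUFA8 there was -2.02 ± 0.57 (adjusted p = 0.0513). The intestine call of NDUFA8 was lost with whole-table sizes (-0.83, adjusted p = 0.132), with the animal as a block (-1.08, adjusted p = 0.345) and without the HC1, LE, QU or UN intestine (adjusted p = 0.0902 to 0.136), and its value was negative throughout. Over the 3 tables with a skin, 6.57% of 4780 genes were called. None of 8 complex I genes, 29 translation genes or 13 assembly factors was among them. Their medians were -1.62, -0.85 and -0.02 against 0.66 over all genes. The other lists had no call either. Their medians were -2.21 for complex IV, -0.79 for complex V and -0.42 for mitochondrial DNA and transcription. RNA processing stood at 0.11, complex III at 0.48 and 2 genes of mitochondrial biogenesis at 1.81.

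The most counted member of each of these lists, in mean CPM over liver, intestine and skin, was as follows. These means pool lineages, of which not all have an intestine or a skin, so they give levels and not differences between tissues. COX4I1, a nuclear subunit of complex IV, had 498, 555 and 243 CPM, and CYC1, the cytochrome c1 of complex III, 312, 271 and 59.2 CPM. NDUFB7, a nuclear subunit of complex I, had 103, 87.3 and 72.7 CPM, and SURF1, an assembly factor of complex IV, 47.4, 66.6 and 13.1 CPM. Among the genes that serve mitochondrial expression, MRPS23 of the small mitochondrial ribosomal subunit had 1191, 18.3 and 131 CPM, GRSF1, an RNA-binding protein of mitochondrial RNA granules, 25.7, 34.9 and 16.1 CPM, and MTERFD2 of the mitochondrial termination factor family 9.21, 24.0 and 16.3 CPM. ATP5SL, listed under complex V by its symbol although its product is not known as a subunit of ATP synthase, had 23.6, 21.3 and 22.9 CPM. None of them was called in either tissue. With lineage as a term, MRPS23 was -1.21 ± 0.63 in intestine (adjusted p = 0.243) and -2.15 ± 0.87 in skin (adjusted p = 0.186) on the log2 scale.

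The genes whose pattern was most like that of a mitochondrial row were looked for by Pearson correlation of log2 CPM, after the mean of each table was subtracted. For MT-ND4L, over 23 libraries and 1949 shared genes, the highest were GRSF1 at 0.630, ZNRF2 at 0.583, SMC3 at 0.579, AHDC1 at 0.564 and SLC5A6 at 0.561. The lowest were NDUFB7 at -0.526, NDUFA12 at -0.513 and KANSL2 at -0.507. The other rows were in fewer tables, so their lists rest on fewer libraries.
MT-CYB was most like NCSTN at 0.774 and least like GPD1 at -0.797 over 20 libraries. MT-ND5 was most like ME2, a mitochondrial malic enzyme, at 0.792 and least like KCNJ8 at -0.782 over 19. MT-CO3 was most like HSD17B6 at 0.874 and least like APOB at -0.881 over 20, and MT-CO1 was most like PABPC1L at 0.971 over 18. A second mitochondrial row was among the 5 most alike only for MT-ND4, which had MT-CO1 at 0.947 over 14 libraries. A row was compared only with genes found in every table that holds it, which limits such a count. MT-CO1, MT-CO3, MT-CYB, MT-ND2 and MT-ND5 could thus be compared with no mitochondrial row but MT-ND4L, and MT-ND4L with none. The QU intestine stood far above its livers in MT-CO1 and MT-ND4, at 5978 and 725 CPM against at most 69.9 and 0.375 CPM. How much that library weighs in the correlations of these rows was not tested. Against MT-ND4L the other mitochondrial rows had correlations from 0.092 for MT-CO2 to 0.513 for MT-ND2. These libraries share tissue, depth and the odd-count livers, and the values are descriptions.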

How the data were processed

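Polyadenylated RNA was extracted with Trizol and sequenced on Illumina libraries, per the labels' protocols, whose text mentions embryos although the samples are labelled adult. BWA and SAMtools are named in the submitters' processing notes, with no version, and the genome build and counting rule are not given in the sources used here. The authors deposited raw read counts, as whole numbers in 6 tables, in which a row is a symbol with an assembled sequence and a column is a tissue of an animal, per the file headers. Titles gave the lineage, tissue and animal of a sample, since the description of many names another lineage's table. An unnamed row (up to 0.169% of the counts) was dropped. CPM are counts per 1000000 counts of the whole table unless stated.

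Tests used R 4.3.3 and edgeR 4.0.16, with filterByExpr at a minimum count of 10, TMM factors and robust glmQLFit, and were run on simulated counts first. The model was lineage plus tissue over the 2252 genes of all 6 tables, the 3 tables with a skin, or tissue within 1 table, which serves for rows missing from a join. Nothing says whether replicates were prepared apart, so p-values measure the spread between these libraries. Alternatives were median-of-ratios factors, DESeq2 1.42.0, whole-table sizes, other filters, the animal as a block (paired by the titles, which name the animal), a term for library type, no odd-count livers, and libraries left out. Alternatives within single tables and over the 3 tables with a skin were chosen after seeing the data. So were the interaction and the intestine fits over the tables that hold a row. A library was taken as odd-count where over 30% of its low counts were odd. Intervals are exact binomial at 95% and cover counting error only. Members of the nuclear lists named in the text are those called, or else the one with the highest mean CPM. Patterns used genes with a mean of at least 10 CPM and log2(CPM + 1). The members, lists, ratio and markers were chosen with earlier results of these data known.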

Additional observations from a re-analysis of the deposited data

Results flagged for a closer look

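The summed mitochondrial share lay on opposite sides of the livers in different lineages. Intestine was lower than every liver in LE, at 3.54%, although its counting interval overlaps that of the lowest liver there, at 3.55%, and above every liver in QU, at 4.18%, and in YA, at 10.7%. Skin was above every liver in HC1, at 10.9%, and below every liver in HC3, at 2.99%, and in UN, at 5.95%. The directions of the sum in YA, HC1, HC3 and UN rest largely on the single rows MT-ND3, MT-CYB, MT-ND5 and MT-CO3. In QU and LE, MT-CO3 was the row furthest from the liver mean in CPM. MT-CO1 in intestine was above both livers in QU, at 5978 CPM, and below both in YA, at 8167 CPM. MT-CYB in intestine was above all livers in HC1, at 51873 CPM, and below both in YA, at 3.83 CPM, where it rests on 13 counts. These opposite directions were picked out for that reason, and the difference between the lineages was not tested for any of them.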

How the results depend on the processing

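Of 379 alternative values for 74 results on mitochondrial rows, 339 kept their direction and their side of the threshold, 22 changed sign, 12 lost a call and 6 gained one.

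MT-ND4L in intestine against liver over all tables changed sign with the animal as a block, to 0.97, and with only paired animals, to 1.24. In skin over 3 tables MT-CO2 became -0.061 with paired animals and ran from -2.15 (without the UN skin) to 1.35 with a skin left out, and MT-CO3 became -0.18 with the animal as a block and ran from -1.5 (without the HC3 skin) to 4.59. With whole-table sizes, values in HC3 skin became 0.71 for MT-ATP6, 0.67 for MT-CO1, 0.044 for MT-CYB and 0.93 for MT-ND4, in LE intestine 0.031 for MT-CO1, in UN intestine 0.090 for MT-CO3 and 0.19 for MT-ND4L, and in UN skin 0.11 for MT-ND4L. Without a filter MT-CO3 in QU intestine was -0.11. With a liver left out, MT-ND2 and MT-ND4L in HC1 intestine ran from -1.0 to 0.36 and from -1.43 to 0.85, and MT-ND4L in HC1 skin from -2.27 to 0.022, each highest without HC1 liver 2. MT-ND4L in HC3 skin ran from -4.20 to 1.92, the latter without HC3 liver 3. In fits over only the tables that hold a row, intestine values became 0.11 for MT-CO3 with whole-table sizes, and 0.16 and 0.39 for MT-ND5 with median-of-ratios factors and whole-table sizes.

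The number of genes called moved more. For intestine against liver over all tables it was 190, with 140 higher. It was 380 with median-of-ratios factors (336 higher), 839 with DESeq2, 512 with whole-table sizes (483 higher), 99 with the animal as a block, 0 with paired animals, 121 with a term for library type, 361 without odd-count livers and 82 to 133 with an intestine left out. For skin against liver it was 92, and 176, 448, 398, 0 and 0 for the first 5 of these settings, 251 without odd-count livers, 314 over the 3 tables with skin and 25 to 58 with a skin left out. Intestine against skin had 1 call, 40 with DESeq2, 0 in both paired fits and in the tables with both tissues, 2 with a term for library type or without odd-count livers, and 0 to 1 with a library left out. Skin over 3 tables had 314, and 1131 with DESeq2, 897 with whole-table sizes, 0 in both paired fits, 163 with library type and 48 to 85 with a skin left out.

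In single tables, calls without a filter were 712 in place of 374 in HC1 intestine, 683 in place of 343 in HC1 skin, 852 in place of 400 in HC3 skin, 453 in place of 285 in LE intestine, and 240, 544 and 719 in place of 0 in QU intestine, UN intestine and UN skin. Whole-table sizes gave 545 in HC1 skin, 911 in HC3 skin, 377 in UN intestine and 694 in UN skin, where median-of-ratios factors gave 112. With a liver left out the range was 0 to 639, 0 to 662, 0 to 734 and 0 to 1677 in HC1 intestine, HC1 skin, HC3 skin and LE intestine. The cause of these moves was not tested.

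The skin ratio of MT-CYB to MT-ND5 was 3.54 with nothing added (HC1 and HC3 only), 3.66 without odd-count livers, 4.85 with the liver of the same animal as a replicate block, and 3.54 to 4.75 with a skin left out, and none of these designs has a smallest p under 0.05. Every paired liver is an odd-count liver, so pairing by animal and the odd counts cannot be told apart. The intestine ratio was 1.15 to 3.61 with an intestine left out. MT-ND4L as a share of the genes of all tables was 0.257% in liver, 0.318% in intestine and 0.289% in skin, and without the 10 most abundant other rows the summed share was 8.11% in liver, 10.6% in intestine and 8.23% in skin. Depth limits the 14 rows under 100 counts.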
